A study of Homo sapiens with 16 samples.

Results

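The genes described here encode the translation initiation factors, the proteins that bring a ribosome to the start codon of an mRNA. They were taken as the rows of the deposited count table whose symbol began with EIF1 to EIF6, without names that ended in P and a number, which left 56 of 25221 rows. By the RefSeq annotation 52 of them were protein-coding genes, 3 were long noncoding RNAs, and 1 row that carried the symbol EIF4A2 was a microRNA. The count table names these 3 RNAs as antisense to a factor gene, but RefSeq names the EIF2B5-AS1 row LINC01840. RNA was measured by 3′ mRNA sequencing in 2 human leukemia cell lines, MOLM13, an acute myeloid leukemia line, and K562, a line with erythroid features that came from blast-crisis chronic myeloid leukemia. Cells of each line were grown for 4 h with DMSO, the solvent, or with 20 µM Ro 08-2750 (Ro) in DMSO, a small molecule that binds the RNA-binding protein MSI2. Each of the 4 groups, MOLM13 with DMSO, MOLM13 with Ro, K562 with DMSO and K562 with Ro, had 4 libraries, and the labels number them as pairs 1 to 4 of a DMSO and a Ro library within a line. Each disease is thus represented by 1 cultured line, and no normal blood cell is among the samples.

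As background, initiation begins when eIF2, carrying the initiator tRNA and GTP, joins the small ribosomal subunit with eIF1, eIF1A, eIF3 and eIF5. The eIF4F complex, made of the cap-binding protein eIF4E, the helicase eIF4A and the scaffold eIF4G, recruits the mRNA, and eIF5B then joins the large subunit. Cells turn initiation down by 2 main switches, the kinases that phosphorylate eIF2 alpha and so block its exchange factor eIF2B, and the 4E-binding proteins that hold eIF4E when mTORC1 is inactive.

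The members were all accounted for. EIF4A1, EIF4G1, EIF2A and EIF4ENIF1 were listed at 0 counts in all 16 libraries, as were the microRNA row and the noncoding RNAs listed as EIF1AX-AS1 and EIF2B5-AS1. EIF4A1 and EIF4G1 encode the main helicase and the main scaffold of eIF4F, which dividing cells use, so a listing at 0 is not read here as absence of the mRNA. A count of 0 alone would allow up to 3 counts, which were 0.0670 to 0.872 counts per 1000000 counts (CPM) in these libraries. In the GENCODE annotation 48.6% of the exon bases of EIF4A1 also lay in exons of other genes of the same strand, among them the readthrough gene SENP3-EIF4A1, whereas the exons of EIF4G1, EIF2A and EIF4ENIF1 shared none, and the cause of the zeros was not tested. EIF4E1B, an eIF4E copy of germ cells, had at most 4 counts in a library and was not tested. EIF1AY, on the Y chromosome, passed the filter but its values are not given and it is left out of all counts of members called. The remaining 47 members passed the filter of at least 10 counts in at least 4 libraries in both lines and were tested. The summed reads of the members made up 0.668% to 1.16% of a library.

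The 16 libraries held between 3143129 and 43571060 counts, with a median of 2.10e+07, and the smallest were K562 DMSO libraries 2 and 4. The sums of markers matched the labels, since the summed level of 8 erythroid genes was 1385 to 2744 CPM in K562 and 4.86 to 8.06 CPM in MOLM13, with HBE1 at 0 in every library. The summed level of 8 myeloid genes was 615 to 762 CPM in MOLM13 and 147 to 296 CPM in K562, with HOXA9 at 0 in K562. HBG2 alone was at 1667 CPM on average in K562 with DMSO, and not every listed gene separated the lines. With DMSO, the means in MOLM13 and K562 were 3.71 and 5.30 CPM for EPOR, 14.8 and 12.3 CPM for CD33 and 23.3 and 17.9 CPM for LYZ. Among 7 markers of other cells, EPCAM was measured at 95.8 CPM on average in K562 with DMSO and the others at 4.63 CPM or less. K562 DMSO library 4 stood furthest apart, because 23.3% of all tested genes lay more than 1 log2 unit from the mean of the other 3 libraries of its group, and 21.3% of the 47 members did. All 10 of these members lay below, where 11.0% of all genes did. K562 DMSO library 2, the smallest, came next with 17.5% of all genes and 10.6% of members, and all 5 of the latter lay above. In MOLM13 library 4 the share of all genes was 11.8% with DMSO and 11.2% with Ro. Medians and counts of the K562 comparison are also given without K562 DMSO library 4. Leaving out K562 DMSO library 2 instead moved the K562 member median the other way, to 0.17.

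**Figure D1:**
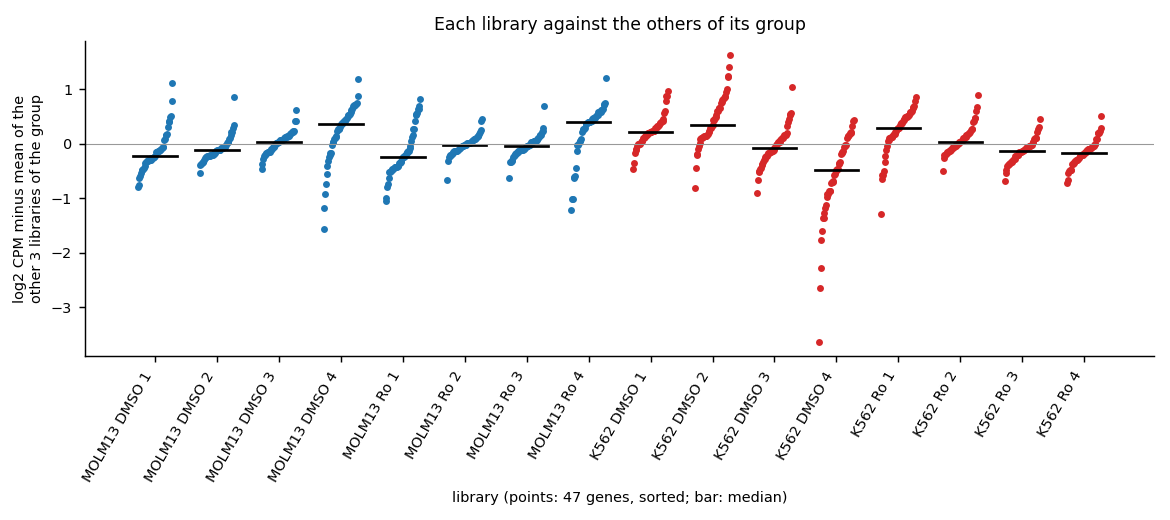
Each point is 1 of 47 initiation factor genes in 1 of 16 libraries, plotted as its log2 CPM minus the mean log2 CPM of the other 3 libraries of its group, with the median as a bar. The median was lowest in K562 DMSO library 4, at -0.49, and highest in MOLM13 Ro library 4 at 0.40 and MOLM13 DMSO library 4 at 0.36.

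The members in K562 DMSO library 4 were not all lower by the same amount. EIF3A, the largest eIF3 subunit, was measured at 789, 851, 618 and 154 CPM in K562 DMSO libraries 1 to 4. EIF3CL was measured at 243, 290.0, 205 and 38.9 CPM in the same libraries, while its near copy EIF3C was measured at 323, 383, 293 and 322 CPM. The sum of both was 566, 673, 498 and 361 CPM. It does not depend on how reads were split between the copies, but it does on whether reads that match both were kept, which is not known. EIF5B, the factor that joins the subunits, was measured at 531, 713, 576 and 198 CPM. Library 4 was the lowest for EIF3A, EIF5B and the sum of EIF3C and EIF3CL. EIF6, EIF2S3 and EIF3L were higher in that library than the mean of the other 3, by 0.44, 0.42 and 0.33 log2 units.

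Levels were first compared among the members in the DMSO libraries. They are given in CPM, and since 3′ sequencing reads 1 end of a transcript they were not divided by length. In MOLM13 the highest member was EIF3A, at 1921 ± 462 CPM (SD, n = 4), and its 4 libraries did not overlap those of the next, EIF3J, at 739 ± 137 CPM. From EIF3J down to EIF2S1 each member overlapped its neighbour in the order, so that the order among them was not resolved one step at a time. In K562 the highest was EIF1, the start codon fidelity factor, at 786 ± 82.9 CPM, which overlapped EIF3J at 670.2 ± 237 CPM and EIF4G2 at 669.8 ± 118 CPM. EIF4G2 encodes a scaffold related to eIF4G that lacks the part that holds eIF4E. At the low end, EIF1B-AS1, EIF5A2 and EIF5A in MOLM13 and EIF4E3 and EIF5A in K562 were under 3 CPM among the tested members.

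**Figure D2:**
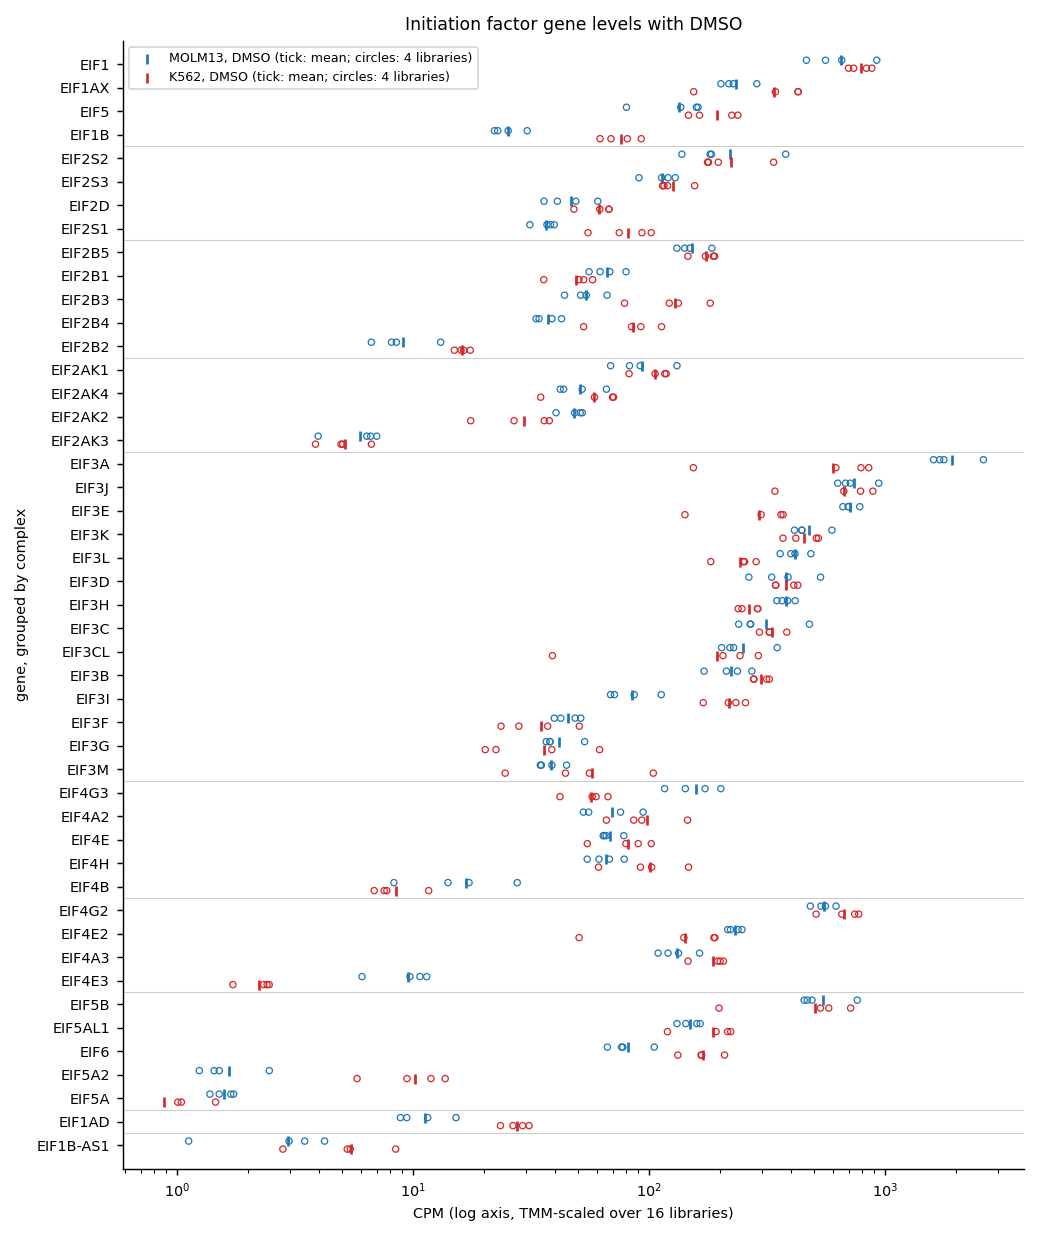
Levels of 47 initiation factor genes in CPM on a log axis in the DMSO libraries, with MOLM13 above and K562 below in each row, circles for the 4 libraries, a tick for their mean, and grey lines between complexes. The K562 library with EIF5A at 0 is not drawn. EIF5A2, EIF1B and EIF3I lay higher in K562 and EIF4E3, EIF3A and EIF4G3 higher in MOLM13, with no overlap of libraries.

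Subunits of the same complex differed widely in measured level. These levels are of the deposited counts, and whether the counting missed reads of some genes more than of others was not tested. The sum used for the shares holds nothing from EIF4A1, EIF4G1, EIF2A and EIF4ENIF1, which were listed at 0. The 14 eIF3 genes, whose products form the scaffold on the small subunit, spanned from EIF3M at 38.2 ± 4.68 CPM to EIF3A in MOLM13, a ratio of 50.3, and from EIF3F at 34.8 ± 11.9 CPM to EIF3J in K562, a ratio of 19.3. Together they made up 59.6% ± 0.673 (SD, n = 4) of the members' summed CPM in MOLM13 and 45.7% ± 2.70 (SD, n = 4) in K562, and the ranges of 58.9% to 60.5% and 41.7% to 47.8% did not overlap. A sum is weighted to its highest genes. The median log2 difference of the 14 genes, MOLM13 over K562, was 0.20, with 10 above 0. Without K562 DMSO library 4 it was 0.03, with 8 above 0 and 6 below. The 5 eIF2B genes ranged from EIF2B2 at 9.07 ± 2.78 CPM to EIF2B5, the catalytic subunit, at 151 ± 23.1 CPM in MOLM13. Their share was 3.18% ± 0.250 (SD, n = 4) in MOLM13 and 5.13% ± 0.284 (SD, n = 4) in K562. The eIF2 kinases together had a share of 1.97% ± 0.0516 (SD, n = 4) and 2.24% ± 0.236 (SD, n = 4). The kinases ranged in both lines from EIF2AK1, the heme-regulated kinase, at 93.4 ± 26.8 CPM in MOLM13 and 106 ± 16.5 CPM in K562, to EIF2AK3, the endoplasmic reticulum kinase PERK, at 5.98 ± 1.37 and 5.12 ± 1.15 CPM. EIF2AK1 and EIF2AK3 did not overlap in either line, whereas EIF2AK4 and EIF2AK2, whose means lay between theirs, overlapped each other in both.

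For near-identical copies the split of reads is uncertain. EIF5A, which carries the hypusine residue and helps the ribosome through difficult stretches, was measured at only 1.58 ± 0.165 CPM in MOLM13 with DMSO, while its intronless copy EIF5AL1 was measured at 149 ± 15.2 CPM. Of the 50-base windows in the last 500 bases of the longest GENCODE transcript of EIF5A, 30.6% were also found in EIF5AL1 transcripts, while none of those at the end of EIF5AL1 were found in EIF5A. For EIF3C and EIF3CL, a duplicated eIF3 subunit gene, 100% of these windows were shared. How the counting assigned such reads is not given in the sources used here, so values of EIF3C, EIF3CL and EIF5A are uncertain one by one, and reads of EIF5A could also have been given to EIF5AL1. EIF1 and EIF1B shared no window.

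Many mRNAs of the translation machinery start with a C followed by a run of pyrimidines, the 5′ terminal oligopyrimidine (TOP) start through which mTORC1 sets their translation, and the gene starts were searched for it as a description. In the RefSeq promoter table of build GRCh38.p14, 43 of 51 protein-coding members other than EIF1AY had an entry, and 9 of these 43, or 20.9%, had an annotated start with C and at least 4 further pyrimidines. Of all 27305 genes with an entry, 5.14% did, and among the 11079 protein-coding genes tested in MOLM13 with an entry 7.31% did. The 9 members were EIF2D, EIF2A, EIF4A2, EIF3F, EIF3M, EIF4B, EIF3K, EIF3D and EIF2S3. Shown are 15 bases before the start and 15 from it on the gene's strand, with the pyrimidine run in capitals, for an alternative carrier of initiator tRNA, the helicase copy, the helicase cofactor and eIF3 subunits, and for the kinase EIF2AK2, whose start has no such run and whose base at the start is in capitals.
EIF2D: ggtttccagccgggcCCTTTTCgcggccgg
EIF4A2: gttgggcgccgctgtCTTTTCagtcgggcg
EIF4B: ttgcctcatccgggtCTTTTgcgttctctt
EIF3M: gcgcggcccagttccCTTTTCCggtcggcg
EIF3D: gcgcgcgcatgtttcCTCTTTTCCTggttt
EIF2AK2: gtccaaggggaaaacGaaactgagaaccag
The windows lie at chr1:206612451-206612480 (-) for EIF2D, chr3:186783562-186783591 (+) for EIF4A2, chr12:53006441-53006470 (+) for EIF4B, chr11:32583816-32583845 (+) for EIF3M, chr22:36529152-36529181 (-) for EIF3D and chr2:37156966-37156995 (-) for EIF2AK2, each spanning the gene's start and the beginning of its 5′ UTR. A match describes the annotated start only.

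The cell lines were compared with DMSO, MOLM13 against K562. In all 17 of the 47 members differed, 8 higher in MOLM13 and 9 higher in K562, taking an adjusted p under 0.05 in edgeR (quasi-likelihood F test, Benjamini-Hochberg) as a call. Among all 15268 tested genes 21.1% were higher in MOLM13 and 20.3% higher in K562, so the members' counts lay near the background of these lines. In such bulk libraries a level is an average over all cells of a culture, and fewer expressing cells and less RNA per cell cannot be told apart. The median log2 difference of the members was -0.19, beside -0.0047 over all genes. The highest differences ran from EIF5A2, 6.38-fold higher in K562, to EIF4E3, 4.41-fold higher in MOLM13.

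Among the genes higher in K562, EIF5A2, the tissue-restricted eIF5A copy, was measured at 2.46, 1.51, 1.24 and 1.43 CPM in the MOLM13 DMSO libraries and at 11.9, 13.7, 9.41 and 5.78 CPM in those of K562 (log2 fold change -2.67, SE 0.32, adjusted p = 1.63e-05). EIF1B, a copy of EIF1, was measured at 22.1, 22.8, 25.2 and 30.4 CPM in the MOLM13 DMSO libraries and at 92.5, 80.8, 61.9 and 68.8 CPM in those of K562 (log2 fold change -1.58, SE 0.21, adjusted p = 3.63e-05). EIF3I, the WD-repeat subunit of eIF3, was measured at 71.2, 68.6, 86.3 and 112 CPM in the MOLM13 DMSO libraries and at 256, 233, 216 and 169 CPM in those of K562 (log2 fold change -1.36, SE 0.23, adjusted p = 0.000356). The libraries of the 2 lines did not overlap for any of these 3 genes. EIF1AD, whose product resembles eIF1A in sequence, was measured at 9.39, 11.5, 15.2 and 8.82 CPM in the MOLM13 DMSO libraries and at 30.9, 29.1, 23.4 and 26.4 CPM in those of K562 (log2 fold change -1.28, SE 0.23, adjusted p = 0.000500). EIF2B3, the gamma subunit of eIF2B, was measured at 66.3, 51.2, 43.7 and 54.1 CPM in the MOLM13 DMSO libraries and at 133, 181, 122 and 78.6 CPM in those of K562 (log2 fold change -1.25, SE 0.26, adjusted p = 0.00155). EIF1AD and EIF2B3 did not overlap either, although K562 DMSO library 4 was the lowest K562 library for EIF2B3.

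The other genes called higher in K562 were EIF2B4, EIF2S1, EIF6 and EIF2B2. EIF2S1 encodes eIF2 alpha, the subunit that the kinases phosphorylate, and was measured at 31.2, 39.6, 36.9 and 38.2 CPM in the MOLM13 DMSO libraries and at 93.1, 102, 74.6 and 55.0 CPM in those of K562 (log2 fold change -1.15, SE 0.22, adjusted p = 0.000968). EIF6, which keeps the large subunit from joining early, was measured at 77.3, 66.4, 76.3 and 105 CPM in the MOLM13 DMSO libraries and at 166, 167, 132 and 208 CPM in those of K562 (log2 fold change -1.04, SE 0.23, adjusted p = 0.00212). For both genes every K562 library lay above every MOLM13 library. With EIF2B3, EIF2B4 at -1.19 and EIF2B2 at -0.81 on the log2 scale, 3 of the 5 eIF2B genes were lower in MOLM13, while EIF2B1 was at 0.44 (SE 0.21, adjusted p = 0.115) and EIF2B5 at -0.19 (SE 0.20, adjusted p = 0.493).

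Among the genes higher in MOLM13, EIF4E3, a cap-binding protein related to eIF4E, was measured at 6.07, 10.7, 11.4 and 9.68 CPM in the MOLM13 DMSO libraries and at 1.72, 2.32, 2.40 and 2.45 CPM in those of K562 (log2 fold change 2.14, SE 0.28, adjusted p = 3.53e-05). EIF3A was measured at 1602, 1701, 1773 and 2606 CPM in the MOLM13 DMSO libraries and at 789, 851, 618 and 154 CPM in those of K562 (log2 fold change 1.68, SE 0.41, adjusted p = 0.00499), and without K562 DMSO library 4 its log2 fold change was 1.36. EIF4G3, a scaffold copy of eIF4G, was measured at 201, 172, 142 and 116 CPM in the MOLM13 DMSO libraries and at 57.3, 66.8, 59.5 and 41.9 CPM in those of K562 (log2 fold change 1.49, SE 0.24, adjusted p = 0.000179). EIF3E, an outer eIF3 subunit, was measured at 661, 697, 779.9 and 698 CPM in the MOLM13 DMSO libraries and at 369, 361, 298 and 142 CPM in those of K562 (log2 fold change 1.28, SE 0.28, adjusted p = 0.00227). EIF4E3, EIF3A, EIF4G3 and EIF3E did not overlap between the lines. EIF4B, which stimulates the helicase, was measured at 27.6, 17.2, 14.0 and 8.28 CPM in the MOLM13 DMSO libraries and at 7.53, 11.6, 7.73 and 6.83 CPM in those of K562 (log2 fold change 1.01, SE 0.33, adjusted p = 0.0270), and MOLM13 DMSO library 4 lay inside the K562 range. The call of EIF4B was lost when any 1 of MOLM13 DMSO libraries 1 and 2 and K562 DMSO libraries 1, 3 and 4 was left out.

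EIF3L, EIF2AK2 and EIF3H were also higher in MOLM13, at 0.78, 0.69 and 0.52 on the log2 scale, the last with an adjusted p = 0.0458. Of the exon bases of EIF3L 41.1%, and of EIF6 17.4%, also lay in exons of other genes of the same strand, so reads there may be split. EIF2AK2 encodes PKR, the kinase that senses double-stranded RNA. Within eIF3, 4 subunits were higher in MOLM13 and 1 was higher in K562, and the other 9 did not pass the test. The 4 genes of the start codon group that have values were all on the lower side in MOLM13, and of these EIF1B passed. Of the core factors, EIF4E was measured at 64.4, 63.8, 65.6 and 78.0 CPM in the MOLM13 DMSO libraries and at 89.8, 102, 79.6 and 54.6 CPM in those of K562 and EIF1 at 464, 558, 654 and 920.5 CPM in the MOLM13 DMSO libraries and at 735, 833, 699 and 877 CPM in those of K562, and neither difference passed (log2 fold change -0.25, SE 0.22, adjusted p = 0.391 for EIF4E and log2 fold change -0.27, SE 0.24, adjusted p = 0.409 for EIF1). EIF5A was measured at 1.73, 1.51, 1.69 and 1.38 CPM in the MOLM13 DMSO libraries and at 1.01, 1.45, 1.04 and 0 CPM in those of K562 (log2 fold change 0.78, SE 0.43, adjusted p = 0.173). Without K562 DMSO library 4, 13 members in place of 9 were higher in K562, where 20.2% of all genes were, and 7 in place of 8 were higher in MOLM13, where 22.5% were. The added ones were EIF3M, EIF1AX, EIF4H and EIF1B-AS1, named after their values were seen. With the pair number as a block, which does not pair cultures across lines, 7 members were higher in MOLM13 and 10 in K562, beside 19.1% and 18.5% of all genes: EIF3H lost its call and EIF1B-AS1 gained one. By position of the libraries, 8 members lay wholly higher in MOLM13 (20.5% of all genes did) and 10 wholly lower (18.9%).

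**Figure D3:**
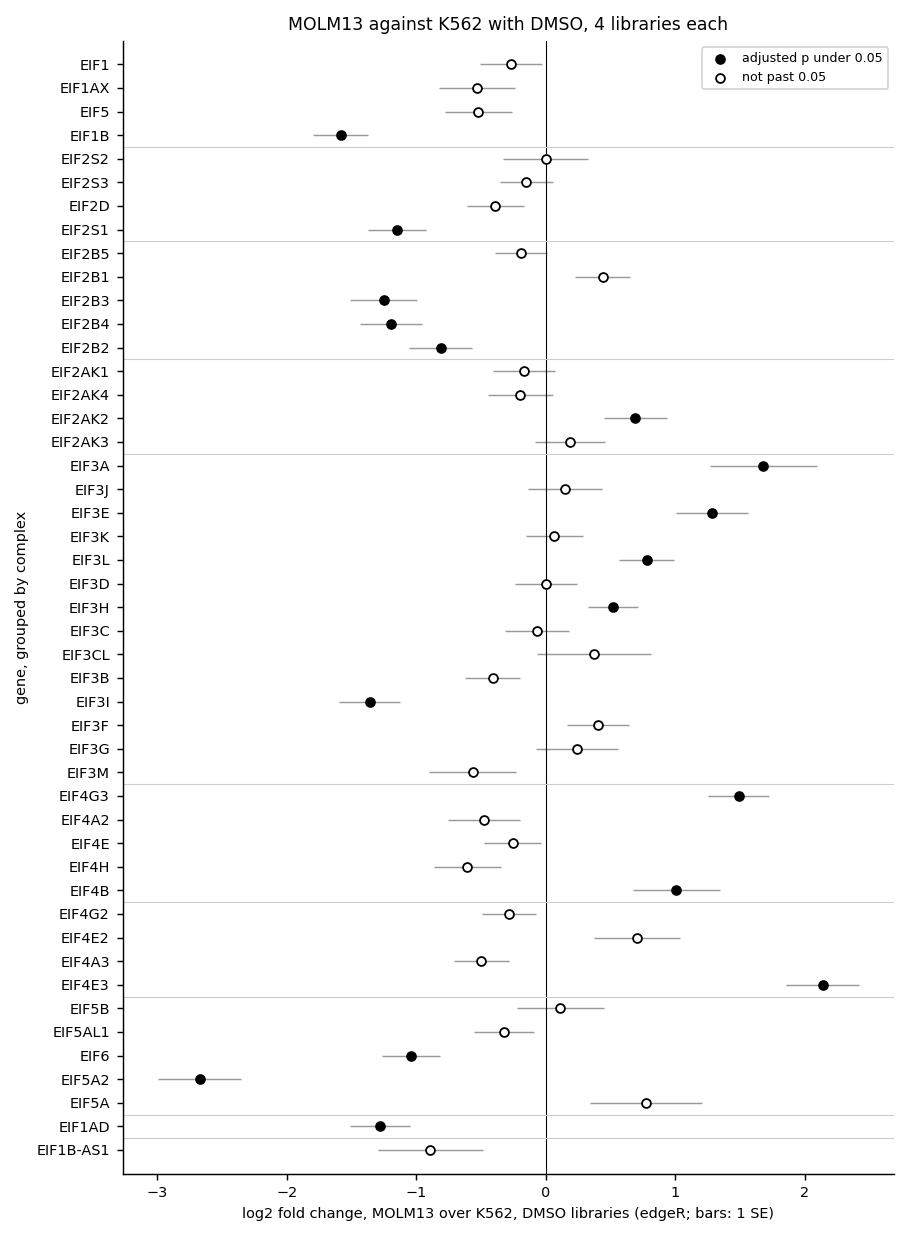
Log2 fold change of 47 initiation factor genes, MOLM13 over K562, in 4 DMSO libraries each, from edgeR, with bars of 1 SE and filled points for adjusted p under 0.05. Filled points lie on both sides within eIF3, with EIF3A at 1.68 and EIF3I at -1.36, and to the left for EIF2B2, EIF2B3 and EIF2B4.

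Ro was then compared with DMSO in MOLM13, which asks how the initiation factor mRNAs stood 4 h after exposure. In the fit without pairing no member was called, and edgeR called 0% of the 15031 genes tested, with no member at an unadjusted p under 0.05, where 126 genes (0.838%) were higher and 49 (0.326%) lower. With the pair as a block, where the numbers are taken to pair the libraries, edgeR called 141 genes higher (0.938%) and 176 lower (1.17%), and again no member. At an unadjusted p under 0.05 the blocked fit had 3 members higher and 10 lower, beside 7.55% and 9.65% of all genes. DESeq2 without the block called no member and 1 gene (0.00665%, higher). With the block DESeq2 called 1 member, EIF3C, as lower (adjusted p = 0.0446), beside 0.459% of all genes higher and 1.31% lower. The groups of 4 libraries overlapped for every member, while 0.665% of all genes were higher and 0.685% lower without overlap.

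The members were on the lower side in MOLM13. Of 47, 36 had a log2 change below 0 and 11 above, where 49.9% of all genes were below, and the median was -0.12 beside 0.00043 over all genes. Within pairs 1 to 4 the member medians were -0.19, -0.04, -0.18 and -0.09, with 34, 29, 38 and 34 of 47 members lower, and the medians over all genes were -0.01, -0.01, -0.02 and -0.02. Genes of higher level also tended to be lower with Ro, and against the trend of all genes at the same mean level the member median was -0.05, with 32 of 47 below the trend. By pair the medians against the trend were -0.13, -0.03, -0.08 and -0.01. The unpaired median was -0.02 without MOLM13 DMSO library 4 and -0.22 without MOLM13 Ro library 4, and with the block it stayed between -0.13 and -0.09 when each pair was left out.

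The sign of the median was not the same for all complexes. Of the 14 eIF3 genes 13 were below 0 in MOLM13 (median -0.14), as were all 4 tested carriers of initiator tRNA (-0.16), 4 of 5 eIF2B genes (-0.16), 3 of 5 eIF4F genes (-0.13) and 4 of 5 genes of subunit joining, eIF5A and eIF6 (-0.12). The eIF2 kinases had 3 of 4 above 0, with a median of 0.17, and their medians within pairs 1 to 4 were 0.28, 0.18, 0.06 and 0.03. EIF2AK1 went the other way in every pair, at -0.02, -0.08, -0.22 and -0.18. EIF2AK4, at 0.02, was above 0 in 1 pair. None of these genes passed the test, and the difference between complexes was not tested.

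On the higher side EIF2AK2 and EIF2AK3, 2 of the 4 kinases, had the clearest values. EIF2AK2 (PKR) was measured at 52.0, 48.3, 51.0 and 40.3 CPM with DMSO and at 77.1, 58.2, 59.0 and 42.3 CPM with Ro, and its log2 change within pairs 1 to 4 was 0.57, 0.27, 0.21 and 0.07. Every pair was higher with Ro, but the 2 groups overlapped through pair 4. The blocked estimate was 0.29 (SE 0.08, adjusted p = 0.0680), and when each pair was left out it ran from 0.20 without pair 1 (adjusted p = 0.318) to 0.35 without pair 4 (adjusted p = 0.0240). In that last fit 1.06% of all genes were called higher and 1.39% lower, and EIF4A2 was the only member called lower. EIF2AK3 (PERK) was measured at 6.36, 7.00, 6.60 and 3.95 CPM with DMSO and at 9.60, 9.26, 7.38 and 4.25 CPM with Ro, with pair changes of 0.59, 0.40, 0.16 and 0.10 and a blocked estimate of 0.31 (SE 0.13, adjusted p = 0.221). Both genes had their lowest levels in pair 4. EIF5A was measured at 1.73, 1.51, 1.69 and 1.38 CPM with DMSO and at 2.97, 1.96, 2.02 and 1.65 CPM with Ro, with a blocked estimate of 0.40 (SE 0.22, adjusted p = 0.358), but at this level it rests on few reads and shares sequence with EIF5AL1. Summed with EIF5AL1, which had nearly all the reads, it was lower with Ro, with pair changes of -0.34, -0.26, -0.25 and -0.03. EIF4G3 was measured at 201, 172, 142 and 116 CPM with DMSO and at 217, 177, 152 and 117 CPM with Ro, with pair changes of 0.11, 0.04, 0.10 and 0.01 and a blocked estimate of 0.08 (SE 0.07, adjusted p = 0.590). These 4 were the members above 0 in all 4 pairs, where 10.2% of all genes were.

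On the lower side 17 of 47 members were below 0 in all 4 pairs, where 14.9% of all genes were. EIF2D, which can load initiator tRNA without eIF2, was measured at 35.8, 40.8, 48.9 and 60.5 CPM with DMSO and at 26.9, 36.4, 38.2 and 51.8 CPM with Ro, with pair changes of -0.41, -0.16, -0.35 and -0.22 and a blocked estimate of -0.27 (SE 0.08, adjusted p = 0.0771). EIF3C was measured at 239, 269, 268 and 477 CPM with DMSO and at 197, 237, 241 and 366 CPM with Ro, with a blocked estimate of -0.23 (SE 0.07, adjusted p = 0.0852). Pair 4 was the highest in both groups for both genes, so the groups overlapped although each pair was lower with Ro. Summed with its copy EIF3CL, EIF3C had pair changes of -0.14, -0.14, -0.20 and -0.33. EIF5AL1 was measured at 131, 143, 164 and 159 CPM with DMSO and at 102, 119, 138 and 156 CPM with Ro, with a blocked estimate of -0.21 (SE 0.07, adjusted p = 0.136). EIF1AX, one of the genes for eIF1A, was measured at 201, 217, 227 and 286 CPM with DMSO and at 169, 205, 186 and 245 CPM with Ro, with a blocked estimate of -0.20 (SE 0.07, adjusted p = 0.137). None of the 4 passed in edgeR.

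The core factors had small differences in MOLM13, none of which passed the test. EIF4E was measured at 64.4, 63.8, 65.6 and 78.0 CPM with DMSO and at 53.8, 61.4, 57.5 and 73.8 CPM with Ro, with a blocked estimate of -0.13 (SE 0.07, adjusted p = 0.377). EIF2S1 was measured at 31.2, 39.6, 36.9 and 38.2 CPM with DMSO and at 27.0, 36.2, 33.2 and 33.8 CPM with Ro, with a blocked estimate of -0.15 (SE 0.08, adjusted p = 0.334). EIF1 was measured at 464, 558, 654 and 920.5 CPM with DMSO and at 471, 545, 611 and 805 CPM with Ro, with a blocked estimate of -0.06 (SE 0.07, adjusted p = 0.690). EIF6 was measured at 77.3, 66.4, 76.3 and 105 CPM with DMSO and at 58.6, 64.0, 68.5 and 95.0 CPM with Ro, with a blocked estimate of -0.17 (SE 0.07, adjusted p = 0.252). In EIF4E, EIF2S1 and EIF6 each Ro library was below its DMSO partner, and the groups overlapped in all 4 genes.

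**Figure D4:**
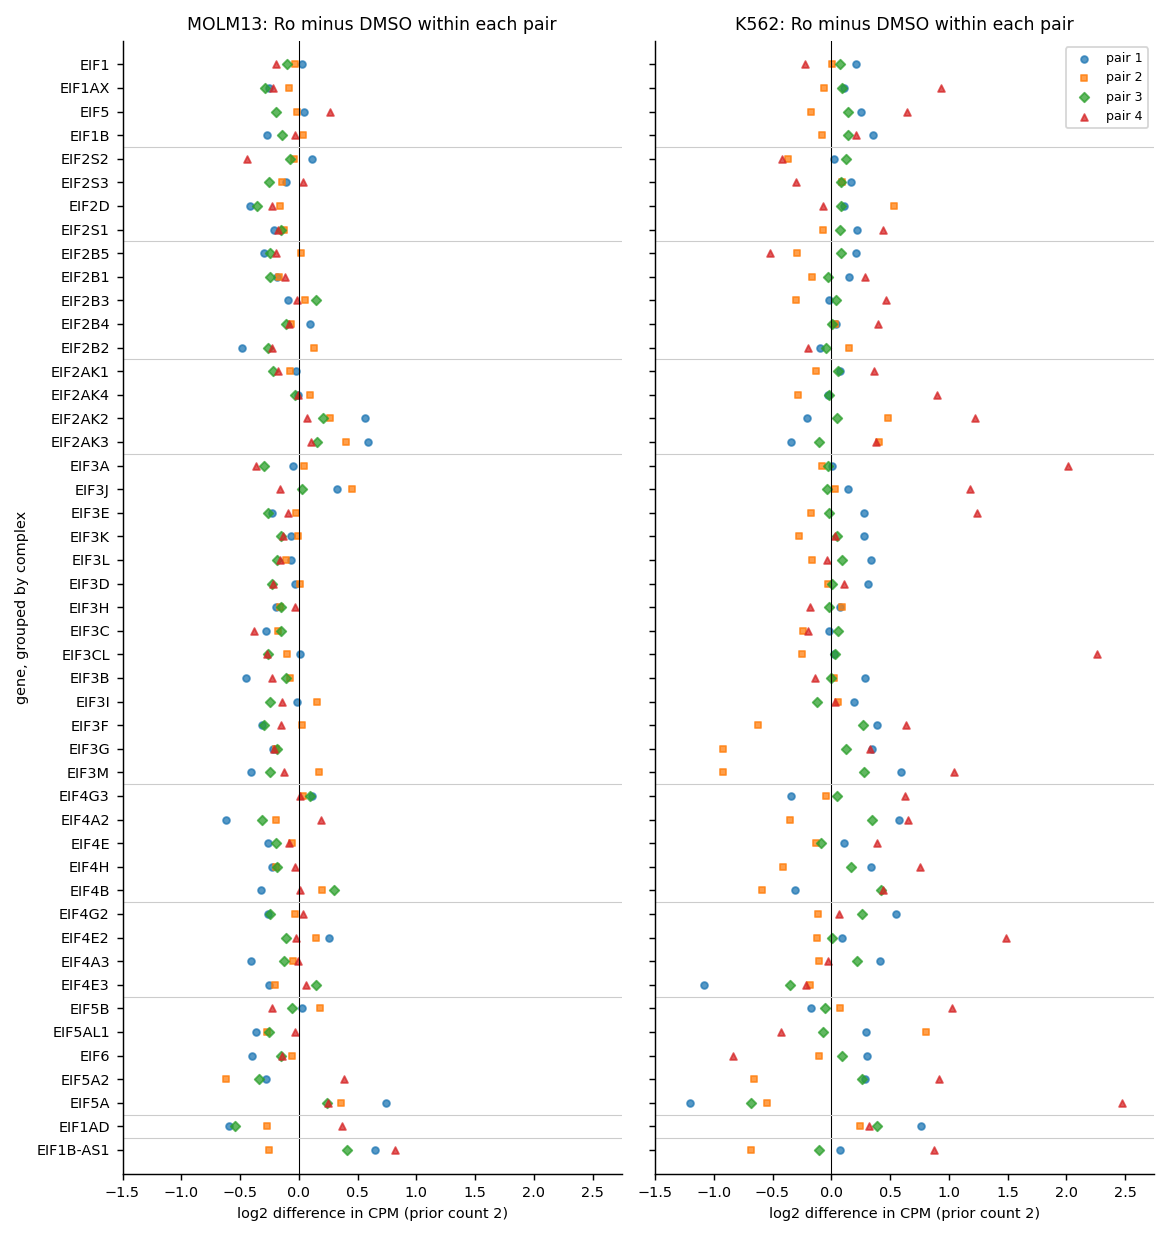
Log2 CPM with Ro minus DMSO within each of 4 pairs for 47 initiation factor genes in MOLM13 on the left and K562 on the right, with grey lines between complexes. In MOLM13 most points lie left of 0 and those of EIF2AK2 and EIF2AK3 right of it, and in K562 the points of pair 4 lie far to the right for EIF3A at 2.01, EIF3CL at 2.26 and EIF4E2 at 1.49.

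In K562 no member was called with Ro in any of the edgeR and DESeq2 fits on all pairs. EdgeR called 0% of the 15227 genes tested, with and without the block, and DESeq2 called none without the block and 2 genes (0.0131%) with it. At an unadjusted p under 0.05 edgeR had 1 member higher and none lower without the block, where 52 genes (0.341%) were higher and 135 (0.887%) lower. The blocked fit likewise had 1 higher and none lower, where 0.847% and 1.27% of all genes were. The groups overlapped for every member, while 0.584% of all genes were higher and 0.663% lower without overlap. The direction was opposite to that in MOLM13, with 37 of 47 members above 0 and a median of 0.10, where 54.2% of all genes were above 0 and the median was 0.02. Within pairs 1 to 4 the member medians were 0.15, -0.12, 0.05 and 0.38, with 36, 14, 31 and 33 of 47 members higher, so that pair 2 went the other way. Without K562 DMSO library 4, 21 of 47 members were above 0. Against the trend of all genes at the same mean level the member median was 0.03, with 29 of 47 above, and by pair it was 0.02, -0.08, 0.02 and 0.18. Pair 4 holds K562 DMSO library 4. Without that pair the blocked median was 0.03, with 29 of 47 members above 0. The unpaired median without that library alone, which keeps the Ro library of pair 4, was -0.01. When each library was left out in turn the unpaired median ran from -0.03, without K562 Ro library 1, to 0.17, without K562 DMSO library 2.

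EIF1AD was the member with the smallest p in K562, at 30.9, 29.1, 23.4 and 26.4 CPM with DMSO and at 52.7, 34.5, 30.6 and 33.0 CPM with Ro. Its pair changes were 0.77, 0.25, 0.39 and 0.32, and the 2 groups overlapped between 30.6 and 30.9 CPM. The estimate was 0.46 (SE 0.19, adjusted p = 1.00) without the block and 0.44 (SE 0.15, adjusted p = 0.947) with it. EIF2B4, the delta subunit of eIF2B, was above 0 in all pairs, at 92.1, 113, 84.1 and 52.7 CPM with DMSO and at 94.9, 115, 84.7 and 69.6 CPM with Ro, with pair changes of 0.04, 0.03, 0.01 and 0.40 and a blocked estimate of 0.12 (SE 0.14, adjusted p = 0.947). Pair 4 had by far the greatest change of the 4, and the unpaired estimate without K562 DMSO library 4 was -0.07. EIF1AD and EIF2B4 were the only members above 0 in all pairs of K562, where 6.84% of all genes were. EIF4E3 was the only member below 0 in all pairs, where 4.64% of all genes were, at 1.72, 2.32, 2.40 and 2.45 CPM with DMSO and at 0.758, 2.04, 1.87 and 2.10 CPM with Ro, with a blocked estimate of -0.48 (SE 0.27, adjusted p = 0.947). Its pair changes were -1.08, -0.18, -0.35 and -0.22. They rest on few reads, 8 to 77 counts with DMSO and 10 to 64 with Ro. The unpaired estimate was -0.32, and -0.13 without K562 Ro library 1.

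By complex in K562, all 5 tested eIF4F genes (median 0.08), all 4 start codon genes (0.18), all 4 eIF2 kinases (0.09) and 11 of 14 eIF3 genes (0.09) were above 0. Without K562 DMSO library 4 these were 1 of 5 eIF4F genes (-0.01), 3 of 4 start codon genes (0.09), 1 of 4 kinases (-0.03) and 8 of 14 eIF3 genes (0.02), so the sign of the eIF4F and kinase medians turned. The eIF2B genes had a median of 0.0024, with 3 of 5 above, and of -0.07 with none above without that library. This removal kept the Ro library of pair 4. With the block and without pair 4, 2 of 5 eIF4F genes (-0.03), 2 of 4 kinases (-0.03) and 2 of 5 eIF2B genes (-0.0062) were above 0. In that fit all 4 start codon genes (0.09) and 10 of 14 eIF3 genes (0.04) were. EIF4E was measured at 89.8, 102, 79.6 and 54.6 CPM with DMSO and at 96.5, 93.0, 75.1 and 71.8 CPM with Ro, EIF2S1 at 93.1, 102, 74.6 and 55.0 CPM with DMSO and at 108, 97.2, 78.7 and 74.8 CPM with Ro, EIF1 at 735, 833, 699 and 877 CPM with DMSO and at 848, 836, 735 and 752 CPM with Ro and EIF6 at 166, 167, 132 and 208 CPM with DMSO and at 205, 155, 141 and 117 CPM with Ro. In each of these 4 the groups overlapped, and the blocked estimates were 0.07 (SE 0.14, adjusted p = 0.954), 0.17 (SE 0.14, adjusted p = 0.947), 0.02 (SE 0.15, adjusted p = 0.992) and -0.13 (SE 0.20, adjusted p = 0.949). EIF5A was measured at 1.01, 1.45, 1.04 and 0 CPM with DMSO and at 0.379, 0.964, 0.608 and 0.459 CPM with Ro, with pair changes of -1.20, -0.55, -0.69 and 2.47, the last against a count of 0. Its blocked estimate was -0.58 (SE 0.49, adjusted p = 0.947), and it was -0.27 without pair 1 and -0.91 without pair 4. Summed with EIF5AL1, EIF5A had pair changes of 0.29, 0.80, -0.08 and -0.42 in K562. In pairs 1 and 3 alone, the pairs without a shallow DMSO library, the blocked fit called 3 members higher and none lower. They were EIF1AD at 0.57, EIF4A2 at 0.45 and EIF3M at 0.42 on the log2 scale. In that fit 1.43% of all genes were called higher and 1.63% lower, whereas the blocked edgeR fit of all pairs called 0% of 15227 genes. With pairs 1 and 3 only, few libraries are left to estimate the spread, so these calls are not read as a result.

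**Figure D5:**
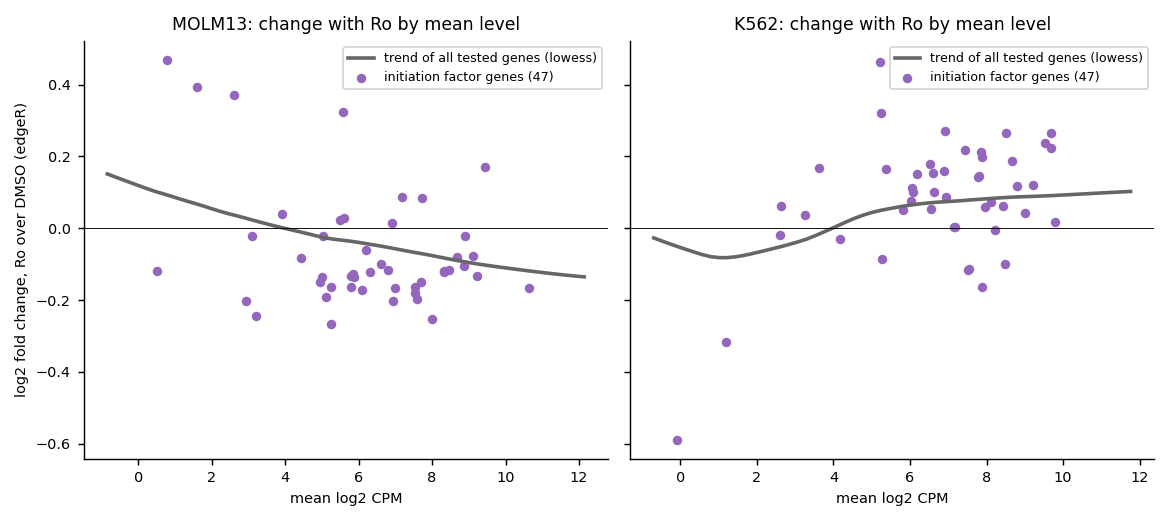
Log2 fold change with Ro over DMSO from edgeR without the block against mean log2 CPM for 47 initiation factor genes, with the lowess trend of all tested genes as a line, for MOLM13 on the left and K562 on the right. In MOLM13 32 of 47 points lie below the line, and in K562 29 of 47 lie above it.

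The opposite signs in the 2 lines were tested as the difference of the Ro effects in 1 fit of 16 libraries. No member was called, and edgeR called 0% of 16224 genes, with or without the block. The median member difference was -0.18, MOLM13 minus K562, with 41 of 47 below 0, where the median over all genes was -0.02. Without K562 DMSO library 4 it was -0.11, with 32 of 47 below 0. Against the trend at the same mean level it was -0.04, with 27 of 47 below. EIF1AD had the smallest p, at -0.71 (SE 0.32, adjusted p = 1.00) without the block and -0.68 (SE 0.22, adjusted p = 0.766) with it. At an unadjusted p under 0.05, 1 member without the block and 5 with it had a more positive change in K562, beside 0.253% and 2.93% of all genes, and no member was more positive in MOLM13, beside 1.09% and 3.08%. DESeq2 called no member, with 0% of genes without the block and 0.00616% and 0.0123% with it.

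The members with a TOP start are given beside the others in the Ro comparisons. In MOLM13 7 of 8 tested TOP members were below 0, with a median of -0.13, and 21 of 30 other members with an entry were, with a median of -0.09. In K562 all 8 were above 0, with a median of 0.11, and 24 of the 30 others were, with a median of 0.10. Without K562 DMSO library 4, 6 of 8 and 12 of 30 were above 0, with medians of 0.09 and -0.03. With the block and without pair 4, 7 of 8 and 18 of 30 were, with medians of 0.07 and 0.04. Between the lines 1 of 8 TOP members, EIF4B, and 12 of 30 others passed the test in either direction, where 21.1% of all genes were higher in MOLM13 and 20.3% in K562, and the call of EIF4B was lost on leaving out any of 5 libraries named above. These medians are descriptions, without a test.

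Other genes of the pathway were taken from 8 lists by role, 61 genes in all. With Ro in MOLM13 none of the 56 tested passed without the block, where 0% of all genes did. In K562 none of 57 did, with or without the block, where again 0% of all genes did. With the block in MOLM13 1 passed, beside 0.938% of all genes called higher and 1.17% lower, so this count lay near the background. The one called was DDIT4, an inhibitor of mTORC1, which was measured at 83.9, 110.3, 156 and 981 CPM with DMSO and at 48.9, 109, 119 and 650.0 CPM with Ro in MOLM13, lower in each pair, with a blocked estimate of -0.42 (SE 0.09, adjusted p = 0.0175). Its level was far higher in pair 4 than in the others in both groups. The 4E-binding proteins EIF4EBP1 and EIF4EBP2, which hold eIF4E away from eIF4G, did not pass. EIF4EBP1 was measured at 30.9, 30.8, 30.3 and 66.9 CPM with DMSO and 24.1, 30.1, 32.8 and 63.0 CPM with Ro in MOLM13, and at 21.7, 32.8, 24.1 and 26.1 CPM and 24.3, 23.7, 23.4 and 18.8 CPM in K562. EIF4EBP2 was measured at 102, 122, 135 and 118 CPM with DMSO and 93.8, 120.2, 120.4 and 128 CPM with Ro in MOLM13, and at 137, 131, 119.5 and 123 CPM and 163, 119, 124 and 119 CPM in K562. EIF4EBP3 was listed at 0 in every library. Between the lines with DMSO 13 of 57 were higher in MOLM13 and 13 higher in K562, near the 21.1% and 20.3% of all genes. With the block 11 and 10 were, beside 19.1% and 18.5% of all genes.

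By list, the median with Ro in MOLM13 was -0.12 for 9 elongation factor genes, with 1 above 0, -0.02 for 6 genes of poly(A)-binding proteins and partners, -0.03 for 9 initiation helpers outside the family and -0.07 for 9 genes of the response to eIF2 phosphorylation. The last turned sign with the block, to 0.05, and its medians within pairs 1 to 4 were 0.16, 0.16, -0.09 and -0.14. In K562 the same lists had medians of 0.0030, 0.16, 0.17 and 0.18, and all 9 genes of the last list were above 0, none past the test. Without K562 DMSO library 4 these medians were 0.04, 0.08, -0.0015 and 0.13, with 6 of 9 genes of the last list above 0. The 3 tested inhibitors that bind eIF4E or eIF4A had a median of -0.07 in MOLM13 and 0.05 in K562, and -0.16 in K562 without that library. The lists of mTORC1 control, of termination and recycling and of mitochondrial initiation had medians between -0.04 and 0.0012 in MOLM13 and between 0.04 and 0.13 in K562, and between -0.06 and -0.03 there without that library. With the block and without pair 4, the K562 medians were 0.01 for elongation and 0.06 for the initiation helpers. For 5 tested genes of poly(A)-binding proteins and partners the median was 0.03. It was 0.14 for the response to eIF2 phosphorylation, with 7 of 9 above 0. The inhibitors were at -0.04 and the last 3 lists between -0.04 and 0.0033.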

How the data were processed

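RNA of 16 samples of MOLM13 and K562 cells was sequenced from the 3′ end (QuantSeq forward kit, HiSeq 2000). The submitters' processing notes name Trim Galore, STAR 2.5.3a, SAMtools 1.5 and hg38. The counting tool and annotation are not given in the sources used here. The deposited values are whole-number counts per gene made by the authors, not normalized, for 25221 genes, and 1425 rows without a symbol, holding 1.37% to 25.0% of a library's counts, were kept. ERCC spike-ins were added in the study but 0 of the rows are spike-ins.

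The members, complexes and pathway lists were chosen with earlier results of these data known. Genes that reached 10 counts in 4 or more libraries were tested with edgeR 4.0.16 (R 4.3.3), using TMM scaling, the quasi-likelihood F test and Benjamini-Hochberg adjustment over all tested genes, with calls at an adjusted p under 0.05. Each line's Ro and DMSO libraries were fitted together without the pair number, the lines on the 8 DMSO libraries, and the difference of the Ro effects on all 16. The SE is the log2 fold change divided by the square root of F. CPM used TMM factors over all 16 libraries, and pair changes used log2 CPM with a prior count of 2. The trend of change on mean level was a lowess curve with a span of 0.3.

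The titles number DMSO and Ro libraries as pairs. Deviations of libraries with the same number from their group means correlated at 0.384 to 0.831 in MOLM13 and 0.110 to 0.417 in K562, the lowest in K562 pair 2. The numbers were taken as pairs, less firmly in K562, and a fit with the pair as a block is given beside the unpaired one. What libraries with the same number share was not tested. Nothing in the labels says that libraries of a group are separate cultures grown apart, so p-values measure the spread between these samples, which may be technical. Libraries of a group differed by more than sampling noise (chi-square per degree of freedom at least 10.1). Floors of 3 counts cover counting error only.

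The fits were tested on simulated data. For the Ro comparisons and the line difference in the Ro response these kept the differences between pairs within a line. For the fit between the lines every library had the same mean level per gene, so differences between libraries were not kept. The simulated spread was a fixed setting for all genes, not estimated from these data, and came on top of the pair differences. There the unpaired edgeR fits of the Ro comparisons and of the line difference in the Ro response recovered none of the genes that were changed. The edgeR fits with the block, and the fit between the lines, recovered a part of them. How many changes the fits would recover in the real data is not known. The lack of calls in the unpaired Ro fits is not read as a lack of change. Alternatives were DESeq2 1.42.0, its size factors in edgeR, other count minimums, removal of the trend, the pair block, leaving out each library or pair, and K562 pairs 1 and 3 alone. Per-library values are given for the core factors EIF4E, EIF2S1, EIF1, EIF5A and EIF6 (EIF4A1 and EIF4G1 are at 0), for up to 4 members per direction with the smallest blocked p and the same sign in all 4 pairs of a line, for the 5 called members per direction with the largest fold between lines, and for EIF4EBP1 to EIF4EBP3 and pathway genes called with Ro. EIF3A, EIF3CL, EIF3C and EIF5B in K562 DMSO are given in addition, chosen after their values were seen. Sequences are from RefSeq (GRCh38.p14), and shared windows and exon overlaps from the GENCODE annotation.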

Additional observations from a re-analysis of the deposited data

Results flagged for a closer look

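Among the 4 libraries of a group, a level was taken as standing apart when its gap to the nearest other library, divided by the range, exceeded Dixon's critical value for 4 samples, which chance gives in about 1 in 20 groups. Of 88 groups of 24 members looked at, 4 were beyond it. EIF4E was at 78.0 CPM in MOLM13 DMSO library 4, with the others at 63.8 to 65.6 CPM. EIF3C was at 477 CPM in the same library, with the others at 239 to 269 CPM. EIF3A was at 2606 CPM in that library too, with the others at 1602 to 1773 CPM. EIF4G3 was at 45.1 CPM in K562 Ro library 1, with the others at 61.6 to 64.9 CPM.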

How the results depend on the processing

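Apart from leaving out libraries or pairs, the values of named genes were on the same side in 192 cases, reversed in 3 and newly called in 2, and the counts and medians stayed close in 62 cases and moved in 3. The trend removal gives no count of calls. With the pair as a replicate block, the MOLM13 median was -0.12 and, with the trend also removed, -0.041, and the block changed no count of members called with Ro. The number of members called in MOLM13 was 1 lower in DESeq2 with the block, and it ranged from 0 to 1 in each direction when each pair was left out, with EIF2AK2 higher and EIF4A2 lower without pair 4. In K562 3 members were called higher in pairs 1 and 3 alone, where 1.43% of all genes were. That fit leaves few libraries to estimate the spread, and the blocked edgeR fit of all pairs called 0% of genes. When each library was left out, the MOLM13 median ran from -0.22 to -0.024, and 5 to 8 members were called higher in MOLM13 than in K562, 5 without MOLM13 DMSO library 1 or 2.

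The sign of some small, uncalled changes with Ro turned. In MOLM13, leaving out a library gave -0.24 to 0.13 for EIF1, -0.088 to 0.23 for EIF4G3 and -0.45 to 0.016 for EIF3C. In K562 it gave -0.092 to 0.17 for EIF4E, -0.050 to 0.080 for EIF1, -0.30 to 0.0073 for EIF6 and -0.066 to 0.25 for EIF2B4. With the block in K562, EIF4E was at -0.034 without pair 4 and -0.0053 in pairs 1 and 3, EIF1 at -0.061 without pair 1 and -0.0017 without pair 3, and EIF6 at 0.10 without pair 4 and 0.19 in pairs 1 and 3. A count minimum of 50 put EIF1 in K562 at -0.0078. The causes were not tested. The absence of a call with Ro does not show a lack of change. The smallest library, with 3143129 counts, puts 3 counts at 0.872 CPM.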
